A study of Mus musculus with 24 samples.

Results

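The acute phase genes described here are 10 liver genes chosen by symbol: the serum amyloid A genes Saa1, Saa2, Saa3 and Saa4, the orosomucoid genes Orm1, Orm2 and Orm3, and Lcn2, Hp and Hpx. They are 10 of the 41388 genes in the deposited tables, and the rule that chose them uses symbols and no measured value, although earlier results of these data were known when it was written. RNA-seq was performed on whole liver from male C57BL/6J mice in 4 groups of 5, with 1 library per mouse. Adn-Lpin1-/- mice carried a floxed Lpin1 allele deleted by a Cre recombinase under the adiponectin promoter, which is active in adipocytes, so the liver itself was not the targeted tissue. WT controls were littermates that were homozygous for the floxed allele and lacked Cre. Mice of each genotype were given a low-fat diet (LFD, 10% of kcal from fat) or a high-fat diet (HFD, 60% of kcal from fat) from 8 weeks of age and were fasted for 4 h before the tissue was taken. The diet lasted 5 weeks in the study's methods and 16 weeks in the sample labels, so its length was not settled here. The comparisons asked whether loss of adipocyte Lpin1 altered the liver's acute phase genes on either diet, and whether the HFD did so in either genotype.

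The acute phase response is the change in plasma proteins that the liver makes during infection, injury or inflammation. Cytokines of the interleukin-6 family act on hepatocytes through STAT3, and interleukin-1 and tumor necrosis factor act through NF-kappaB, with C/EBP factors acting at many of the same promoters. SAA1 and SAA2 are apolipoproteins of HDL that rise steeply in inflammation, SAA3 is made largely by macrophages and adipocytes as well as by liver, and SAA4 is expressed constitutively. The orosomucoids, also called alpha-1-acid glycoproteins, bind lipophilic ligands in plasma. Lipocalin-2 (Lcn2) sequesters bacterial siderophores and is also made by neutrophils and adipocytes, haptoglobin (Hp) binds free hemoglobin, and hemopexin (Hpx) binds free heme.

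The 4 Saa genes lie in a single cluster on chromosome 7 (GRCm38), from 46711998 to 46754314, in the order Saa3, Saa4, Saa1 and Saa2, with Saa2 on the plus strand and the others on the minus strand. The 3 Orm genes lie on the plus strand of chromosome 4 between 63344560 and 63365878. Coding sequences of Saa1 and Saa2 were 95.1% identical over 366 bases, with a longest shared run of 73 bases, and those of Saa1 and Saa3 were 79.1% identical. Orm1 and Orm2 were 89.9% identical over 621 bases, with a longest shared run of 104 bases. The tables count uniquely aligned reads, so reads from such shared stretches can be lost or misassigned, and the split of counts between Saa1 and Saa2 or among the Orm genes is uncertain.

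Windows of 250 bases before the transcription start (RefSeq, GRCm38.p6) were found for 8 of the 10 genes, excepting Orm1 and Hp. The Saa windows are shown because Saa1, Saa2 and Saa3 varied together among mice, whereas Saa4 did not vary with Saa1 or Saa2. Each window is written in the direction of transcription and ends at the base before the start. Capitals mark matches to the C/EBP motif TTNNGNAA on either strand. The windows are chr7:46742981-46743230 (minus strand) for Saa1, chr7:46751583-46751832 (plus strand) for Saa2, chr7:46715677-46715926 (minus strand) for Saa3 and chr7:46732604-46732853 (minus strand) for Saa4.
Saa1: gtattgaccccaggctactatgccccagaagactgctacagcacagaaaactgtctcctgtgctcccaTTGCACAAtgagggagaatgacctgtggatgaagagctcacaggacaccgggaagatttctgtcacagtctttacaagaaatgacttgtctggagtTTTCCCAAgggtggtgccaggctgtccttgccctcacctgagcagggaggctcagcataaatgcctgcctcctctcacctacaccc
Saa2: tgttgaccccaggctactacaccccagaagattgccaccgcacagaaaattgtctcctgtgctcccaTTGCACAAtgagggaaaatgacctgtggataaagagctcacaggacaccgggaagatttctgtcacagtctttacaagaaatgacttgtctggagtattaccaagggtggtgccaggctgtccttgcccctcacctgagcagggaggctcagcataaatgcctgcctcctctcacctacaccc
Saa3: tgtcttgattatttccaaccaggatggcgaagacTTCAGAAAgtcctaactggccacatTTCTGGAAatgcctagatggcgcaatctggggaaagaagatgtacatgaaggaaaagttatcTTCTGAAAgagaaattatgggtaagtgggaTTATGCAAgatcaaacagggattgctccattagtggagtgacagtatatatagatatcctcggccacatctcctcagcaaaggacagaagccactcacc
Saa4: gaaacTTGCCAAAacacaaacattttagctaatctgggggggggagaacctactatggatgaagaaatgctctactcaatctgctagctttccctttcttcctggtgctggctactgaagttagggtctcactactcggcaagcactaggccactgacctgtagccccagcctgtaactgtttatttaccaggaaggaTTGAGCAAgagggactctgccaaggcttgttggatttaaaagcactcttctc
The windows of Saa1 and Saa2 were 95.6% identical, against 64.4% for Saa1 and Saa3 and 62.9% for Saa1 and Saa4. Both Saa1 and Saa2 held a match starting at position -182 or -183 from the start, and Saa1 held another at -86 that Saa2 lacked. Saa3 held 4 matches and Saa4 held 2. A C/EBP match was present in 8 of 8 windows of these genes and in 36.8% of all 32851 windows of this length. The 8 are not independent, since the windows of Orm2 and Orm3 were also alike (89.0% identical), as were those of Saa1 and Saa2. The letters TTCNNNGAA (STAT) were in 0 of the 8 windows and in 7.02% of all windows, GGGNNTTTC (a shortened form of the NF-kappaB motif) in 0 and 3.72%, and CTGGGAA (an interleukin-6 response element) in 0 and 9.10%, on both strands, and no matches to different motifs overlapped in these windows. A match describes the letters and shows no binding.

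Total counts ranged from 36260187 to 45999456 in the WT LFD group, which was the shallowest, and from 51095146 to 61435897 in the Adn-Lpin1-/- LFD group. HFD libraries held 54036184 to 62249701 counts in WT mice and 57550362 to 81072794 counts in Adn-Lpin1-/- mice. All 10 acute phase genes passed the filter on low counts, as did 13052 of all genes. Hepatocyte markers (6 of 6 tested) summed to between 74414 and 111679 CPM (read counts scaled to the library total) in the 20 mice. Most of this sum was Alb, the albumin gene, at a mean of 78714 CPM in WT LFD mice. The sums were 74414 to 93883 CPM in Adn-Lpin1-/- LFD and 97842 to 109599 CPM in WT LFD mice, which did not overlap. On that diet, 1 of the 6 markers was called lower in Adn-Lpin1-/- mice, against 8.11% of all genes. On the HFD the sums were 77834 to 99151 CPM in Adn-Lpin1-/- and 92800 to 111679 CPM in WT mice, which overlapped. There, 4 of the 6 were called lower, against 8.78% of all genes. In whole liver, a smaller share of hepatocytes and lower levels of these genes within hepatocytes, Alb above all, cannot be told apart. A further 4 libraries, each a pool of the RNA of the 5 mice of a group, repeat the same animals and were not tested. The pool lay within the range of the 5 mice in 37 of 40 gene and group combinations.

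Per kilobase of counted exon, Hpx and Hp were the most abundant of the 10 genes and Orm3 the least abundant. In WT LFD livers, Hpx averaged 2558 CPM per kb and Hp averaged 1978 CPM per kb. Orm1 followed at 789 CPM per kb and Saa4 at 216, then Saa1 at 81.3, Saa2 at 37.7, Orm2 at 20.7, Saa3 at 7.49, Lcn2 at 3.63 and Orm3 at 3.51 CPM per kb. The ranges of the 5 mice overlapped between Hpx and Hp, between Saa1 and Saa2, between Saa2 and Orm2, between Saa3 and Lcn2, and between Lcn2 and Orm3 in this group. The order of the mean levels was the same in the other 3 groups, where Hpx lay between 2164 and 2609.5 CPM per kb and Orm3 between 3.72 and 7.79 CPM per kb. Saa1, Saa2 and Lcn2, which are known for steep induction, lay below Hpx, Hp, Orm1 and Saa4 in each group. Between the lowest and highest of the 20 mice, levels differed 7.13-fold for Saa2 and 9.20-fold for Lcn2, but 1.82-fold for Hp and 2.15-fold for Hpx.

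**Figure D1:**
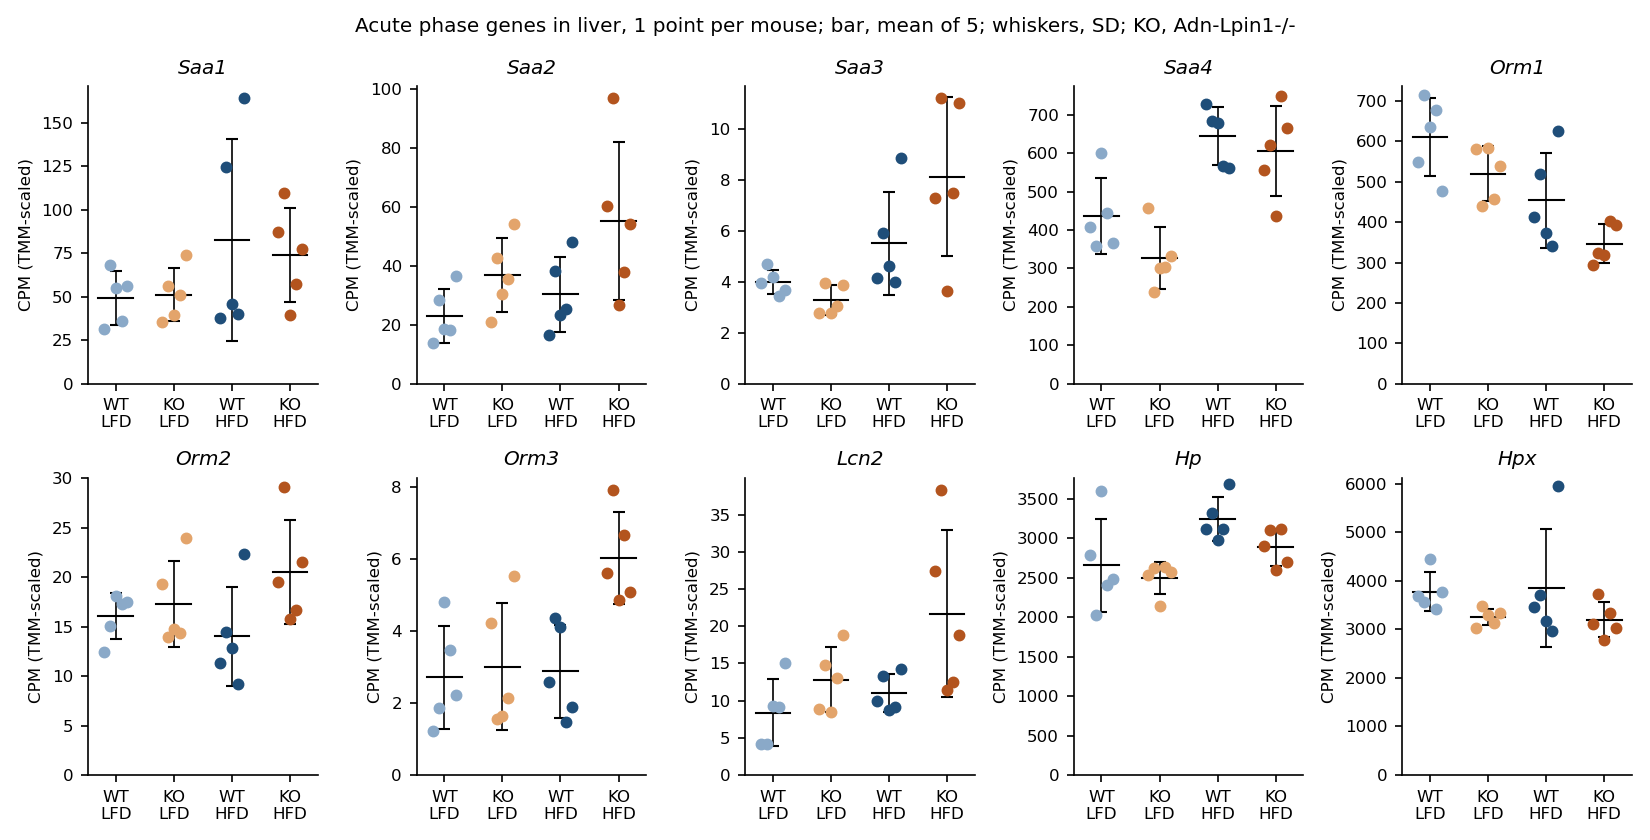
Level of each acute phase gene (CPM with TMM scaling, linear axis from 0) in the 5 mice of each group; KO stands for Adn-Lpin1-/-. Points are mice, horizontal bars are means and whiskers are SD. Orm1 was at least 440.1 CPM in Adn-Lpin1-/- LFD mice, whereas in Adn-Lpin1-/- HFD mice Orm1 was at most 403 CPM and Orm3 was above every WT HFD mouse.

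The HFD altered 3 of the 10 acute phase genes in Adn-Lpin1-/- mice: Saa3 and Saa4 rose and Orm1 fell (edgeR quasi-likelihood test, Benjamini-Hochberg adjusted p at or below 0.05). Over all genes, 2.46% were called in this comparison, 1.20% higher and 1.26% lower. An unadjusted p under 0.05 was found for 5 of the 10, adding Orm3 and Lcn2, against 16.1% of all genes. The median log2 fold change of the 10 genes was 0.56, against 0.01 for all genes. In WT mice, the same diet comparison called 0 of the 10, against 1.10% of all genes. Saa4, Orm1 and Hp had unadjusted p under 0.05 there, a share of 3 in 10 against 15.8% of all genes. DESeq2 called 1 gene in WT mice (Saa4), and voom with quality weights (the test of the study's methods) called 2 (Saa4 and Orm1). Over all 13052 genes, these tests called 400 and 670 there, and edgeR called 144. In Adn-Lpin1-/- mice, voom with quality weights called 4, adding Orm3, and it called 364 of all 13052 genes, against 321 by edgeR. In the edgeR fit without WT LFD mouse 3, the count in WT mice was 2 (Saa4 and Hp), and 111 of all genes were called.

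Genotype was not associated with a called change in any of the 10 genes on either diet by the edgeR test. On the LFD, 0 of 10 were called, against 14.4% of all genes, and Saa4 had an unadjusted p under 0.05, against 28.9% of all genes. DESeq2 also called 0 on the LFD, and voom with quality weights called 1 (Saa4, lower in Adn-Lpin1-/- mice). Over all 13052 genes, they called 2248 and 2217, and edgeR called 1877. On the HFD, 0 of 10 were called, against 18.6% of all genes, while 6 of 10 had unadjusted p under 0.05, against 33.2% of all genes. These were Saa2, Saa3, Orm2, Orm3 and Lcn2, each with a higher mean in Adn-Lpin1-/- mice, and Orm1, with a lower mean. The count on the HFD depended on the test: DESeq2 called 3 (Orm1, Orm2 and Orm3), and voom with quality weights called 4 (Saa2, Orm2, Orm3 and Lcn2). Over all 13052 genes, DESeq2 called 2917, voom 2447 and edgeR 2434. Leaving out a mouse gave 0 to 3 called genes. The highest count came without WT HFD mouse 5 (Saa2, Saa3 and Orm2) or without Adn-Lpin1-/- HFD mouse 3 (Saa2, Saa3 and Lcn2). Those fits called 1898 and 2022 of all 13052 genes. The interaction term, which compares the genotype effects of both diets, was called for 0 of the 10 (0% of all 13052 genes) by edgeR. Saa3 had an unadjusted p of 0.0284 for that difference in the edgeR fit (log2 difference 0.84, SE 0.36), and 7.19% of all genes had an unadjusted p under 0.05. DESeq2 and voom with quality weights also called 0 of the 10, DESeq2 calling 30 genes in all and voom 0.

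**Figure D2:**
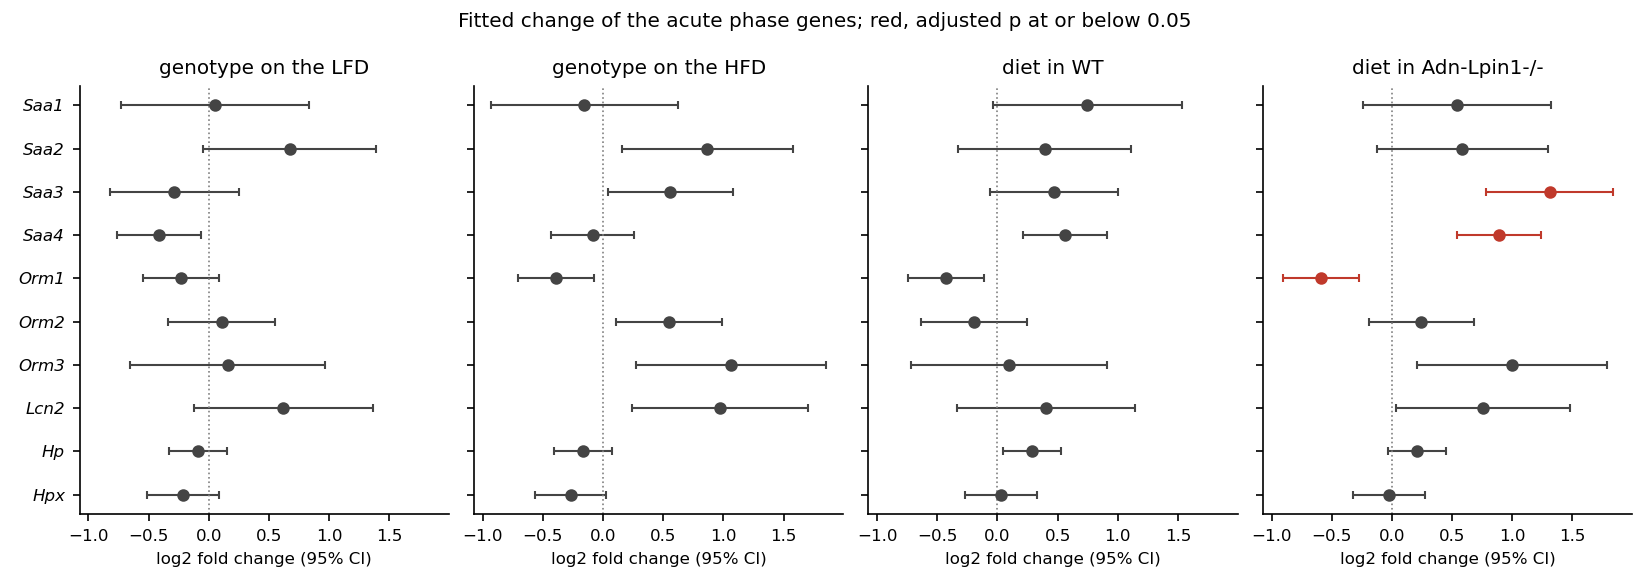
Fitted log2 fold change (points) and 95% confidence interval (lines) of each acute phase gene in the 4 comparisons, from edgeR; red marks an adjusted p at or below 0.05. Red points are Saa3, Saa4 and Orm1 in the comparison of diets within Adn-Lpin1-/- mice, and for Orm2, Orm3, Lcn2, Saa2 and Saa3 the intervals of the genotype comparison on the HFD lie above 0 although none passed the adjusted threshold.

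Saa3 showed the largest called rise of the 10 genes. Its levels in mice 1 to 5 were 2.77, 3.93, 2.76, 3.04 and 3.85 CPM in Adn-Lpin1-/- LFD, and 7.28, 11.2, 3.63, 7.47 and 11.01 CPM in Adn-Lpin1-/- HFD. Of the 5 HFD mice, 4 were above every LFD mouse, and HFD mouse 3, at 3.63 CPM, lay inside the LFD range. The log2 fold change was 1.31 (SE 0.25, a 2.48-fold difference; edgeR adjusted p = 0.00812), and the two-sided exact permutation test over the 10 mice gave p = 0.0238, where 0.00794 is the smallest it can give. The call was kept in 20 of 20 fits that left out a mouse, with log2 fold changes of 1.17 to 1.501. In WT mice, Saa3 was 3.94, 4.68, 4.17, 3.44 and 3.67 CPM on the LFD and 4.16, 5.92, 4.62, 4.00 and 8.85 CPM on the HFD. The WT groups overlapped, and the highest value belonged to HFD mouse 5. The log2 difference was 0.47 (SE 0.25, edgeR adjusted p = 0.386). Between genotypes on the HFD, the log2 difference was 0.56 (SE 0.25, edgeR adjusted p = 0.121). The pool of Adn-Lpin1-/- LFD RNA, at 3.96 CPM, was above the range of its 5 mice, and that of WT LFD, at 3.41 CPM, was below it.

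Macrophage markers (15 of 15 tested, none at 0 throughout a group) were examined beside Saa3. Their summed level was 227 to 412 CPM in Adn-Lpin1-/- LFD mice and 236 to 524 CPM in Adn-Lpin1-/- HFD mice, so these groups overlapped. In this genotype, 0 of the 15 were called higher and 1 lower on the HFD, against 1.20% and 1.26% of all genes. The sums were 174 to 287 CPM in WT LFD mice and 195 to 224 CPM in WT HFD mice. On the HFD, 8 of the 15 were called higher in Adn-Lpin1-/- than in WT mice, against 9.87% of all genes. On the LFD, 1 of the 15 was called higher, against 6.27% of all genes. The tested gene outside the 10 whose variation among mice was most like that of Saa3 was the macrophage scavenger receptor gene Marco (Pearson r = 0.83 over 20 mice, group means removed), followed by Zfp157 (r = 0.81) and Mterf4 (r = 0.81). Mean Marco levels on the LFD were 3.39 CPM in WT and 5.21 CPM in Adn-Lpin1-/- mice, and those on the HFD were 6.18 and 12.7 CPM. Marco is among the 15 macrophage markers, and r with Saa3 is not given here for the others. The part of macrophages in the Saa3 result was not tested.

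Saa4 was the other Saa gene that rose on the HFD in Adn-Lpin1-/- mice. Its levels were 458, 238, 302, 302 and 333 CPM in Adn-Lpin1-/- LFD mice 1 to 5 and 557, 623, 437, 749.9 and 666 CPM in Adn-Lpin1-/- HFD mice. The groups overlapped because LFD mouse 1, at 458 CPM, exceeded HFD mouse 3, at 437 CPM. The log2 fold change was 0.89 (SE 0.17, a 1.86-fold difference; edgeR adjusted p = 0.00691; two-sided exact permutation p = 0.0159). The call was kept in 20 of 20 fits that left out a mouse. In WT mice, the levels were 408, 359.6, 601, 444 and 366 CPM on the LFD and 729, 684, 680.2, 567 and 562 CPM on the HFD. Only LFD mouse 3 reached into the HFD range, and the log2 difference of 0.56 (SE 0.17) did not pass by edgeR (adjusted p = 0.104), but did pass by DESeq2 (adjusted p = 0.0301), by voom with quality weights (adjusted p = 0.0283) and in edgeR without LFD mouse 3 (log2 0.71). Between genotypes on the LFD, Saa4 had the lowest fold change of the 10, with a log2 difference of -0.42 (SE 0.17, edgeR adjusted p = 0.103), and it was called without Adn-Lpin1-/- LFD mouse 1 (log2 -0.57). On the HFD, the genotype difference was -0.09 (95% interval -0.44 to 0.26).

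Saa1 and Saa2, the inducible plasma forms, did not pass the edgeR threshold in any comparison. Saa1 was 31.1, 68.3, 54.8, 35.9 and 55.8 CPM in WT LFD mice and 35.4, 55.9, 39.1, 50.7 and 73.8 CPM in Adn-Lpin1-/- LFD mice. On the HFD it was 37.9, 125, 45.7, 40.2 and 164 CPM in WT mice and 87.1, 109, 39.5, 57.1 and 77.5 CPM in Adn-Lpin1-/- mice. WT HFD mice 2 and 5 were above every other mouse of the 20, and the other 3 WT HFD mice were within the LFD range. The genotype difference on the HFD was -0.16 on the log2 scale (95% interval -0.93 to 0.62), and it was 0.24 without WT HFD mouse 5 and 0.04 without WT HFD mouse 2.

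Saa2 was 13.6, 28.4, 18.4, 18.3 and 36.4 CPM in WT LFD mice and 20.9, 42.6, 30.3, 35.6 and 54.2 CPM in Adn-Lpin1-/- LFD mice. On the HFD it was 16.5, 38.3, 23.1, 25.3 and 48.1 CPM in WT mice and 60.4, 96.9, 26.7, 37.9 and 54.1 CPM in Adn-Lpin1-/- mice. The genotypes overlapped on both diets, with Adn-Lpin1-/- HFD mice 1, 2 and 5 above every WT mouse. The log2 difference between genotypes was 0.67 (SE 0.34, edgeR adjusted p = 0.203) on the LFD and 0.87 (SE 0.34, edgeR adjusted p = 0.0813) on the HFD. The HFD difference passed with voom with quality weights (adjusted p = 0.0333), and in edgeR without WT HFD mouse 5 or without Adn-Lpin1-/- HFD mouse 3. With the counts of Saa1 and Saa2 summed, which avoids the split between near-identical genes, the log2 difference was 0.28 on the LFD (edgeR adjusted p = 0.647) and 0.20 on the HFD (edgeR adjusted p = 0.738).

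Orm1, the most abundant orosomucoid, fell on the HFD in Adn-Lpin1-/- mice. Its levels were 580.4, 440.1, 584, 458 and 539.8 CPM in Adn-Lpin1-/- LFD mice 1 to 5 and 294, 323, 319, 403 and 391.9 CPM in Adn-Lpin1-/- HFD mice. The groups did not overlap, a pattern seen in 4.06% of all genes in this comparison. Orm1 decreased by 0.59 on the log2 scale (SE 0.15, a 1.5-fold difference; edgeR adjusted p = 0.0431; two-sided exact permutation p = 0.00794, the smallest possible). The call was close to the threshold: it was kept in 9 of 20 fits that left out a mouse (edgeR adjusted p 0.0202 to 0.116). It was lost without WT LFD mouse 3, WT HFD mouse 1, any of the 5 Adn-Lpin1-/- LFD mice, or Adn-Lpin1-/- HFD mouse 1, 2, 3 or 5, while the log2 fold change stayed between -0.66 and -0.53. With the 3 Orm genes summed, the log2 difference was -0.54 (edgeR adjusted p = 0.0621).

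In WT mice, Orm1 was 548, 716, 636, 678 and 477 CPM on the LFD and 414, 519, 373, 340.3 and 626 CPM on the HFD. Of the 5 HFD mice, 3 were below every LFD mouse, and HFD mice 2 and 5 lay within the LFD range. The log2 difference was -0.43 (SE 0.15, edgeR adjusted p = 0.170), and it passed with voom with quality weights (log2 -0.58, adjusted p = 0.0148). Between genotypes, the log2 difference was -0.23 on the LFD (edgeR adjusted p = 0.329) and -0.39 on the HFD (SE 0.15, edgeR adjusted p = 0.0745; DESeq2 adjusted p = 0.0459). The HFD difference also passed in edgeR without WT HFD mouse 4 or without Adn-Lpin1-/- HFD mouse 4. Genes most like Orm1 in their variation among mice were Rps13 (r = 0.90), the carboxypeptidase gene Cpb2 (r = 0.88) and the complement gene C9 (r = 0.88), each over 20 mice with group means removed.

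Orm2 and Orm3 were at far lower levels than Orm1. Orm3 was 2.57, 4.35, 4.10, 1.48 and 1.88 CPM in WT HFD mice and 5.62, 7.92, 4.85, 6.65 and 5.08 CPM in Adn-Lpin1-/- HFD mice. The genotypes did not overlap on the HFD, a pattern seen in 11.4% of all genes in this comparison. The log2 difference was 1.06 (SE 0.38, edgeR adjusted p = 0.0557; two-sided exact permutation p = 0.00794). It passed with DESeq2 (adjusted p = 0.0231), with voom with quality weights (adjusted p = 0.0279) and with edgeR on the 2 HFD groups alone (adjusted p = 0.0277). It also passed in 4 of the 20 edgeR fits that left out a mouse, those without WT LFD mouse 1 or 3, Adn-Lpin1-/- LFD mouse 5 or WT HFD mouse 2. On the LFD, Orm3 was 1.21, 1.87, 4.79, 3.47 and 2.22 CPM in WT mice and 4.20, 1.54, 1.64, 2.13 and 5.51 CPM in Adn-Lpin1-/- mice, with a log2 difference of 0.16 (95% interval -0.65 to 0.97) that was below 0 without WT LFD mouse 1 (-0.03) or Adn-Lpin1-/- LFD mouse 5 (-0.18). Between diets in Adn-Lpin1-/- mice, where LFD and HFD levels overlapped, the log2 difference of Orm3 was 1.00 (SE 0.38, edgeR adjusted p = 0.185; two-sided exact permutation p = 0.0238), and it passed with voom with quality weights (log2 1.31, adjusted p = 0.048).

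Orm2 was 12.4, 15.0, 18.05, 17.2 and 17.5 CPM in WT LFD mice and 19.3, 13.96, 14.8, 14.3 and 23.98 CPM in Adn-Lpin1-/- LFD mice. On the HFD it was 11.3, 14.4, 12.8, 9.22 and 22.3 CPM in WT mice and 19.5, 29.0, 15.8, 16.7 and 21.5 CPM in Adn-Lpin1-/- mice. All 5 Adn-Lpin1-/- HFD mice were above 4 of the 5 WT HFD mice, and WT HFD mouse 5 lay among them. The log2 difference between genotypes on the HFD was 0.55 (SE 0.21, edgeR adjusted p = 0.0733; DESeq2 adjusted p = 0.0435), and it was 0.77 and passed in edgeR without WT HFD mouse 5.

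Lcn2 was 9.94, 13.3, 8.70, 9.10 and 14.2 CPM in WT HFD mice and 27.4, 38.3, 11.4, 12.6 and 18.8 CPM in Adn-Lpin1-/- HFD mice. Adn-Lpin1-/- HFD mice 1, 2 and 5 were above every WT HFD mouse, and mice 3 and 4 lay inside the WT range. The log2 difference was 0.97 (SE 0.35, a 1.96-fold difference; edgeR adjusted p = 0.0566; two-sided exact permutation p = 0.0476; voom with quality weights adjusted p = 0.0338). It passed in 5 of the 20 edgeR fits that left out a mouse, those without WT LFD mouse 1, 2 or 5 or Adn-Lpin1-/- HFD mouse 3 or 4. On the LFD, Lcn2 was 4.19, 4.16, 9.26, 9.12 and 15.0 CPM in WT mice and 8.92, 14.8, 8.48, 13.1 and 18.9 CPM in Adn-Lpin1-/- mice, a log2 difference of 0.62 (SE 0.36, edgeR adjusted p = 0.262). Tested genes outside the 10 that varied most like Lcn2 were Pigp (r = 0.89), Ppt1 (r = 0.83) and the ubiquitin-like gene Ubd (r = 0.83).

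Markers of other cells that make lipocalin-2 were examined beside Lcn2. Adipocyte markers (2 of 6 tested) summed to 159 and 195 CPM in Adn-Lpin1-/- HFD mice 1 and 2, which had the highest Lcn2 levels, to 79.9 CPM in mouse 3, 14.4 CPM in mouse 4 and 13.8 CPM in mouse 5. The sums were 5.57 to 24.9 CPM in WT HFD mice, 10.4 to 50.8 CPM in Adn-Lpin1-/- LFD mice and 3.42 to 10.3 CPM in WT LFD mice. These sums were mostly Cfd, the adipsin gene, which averaged 81.8 CPM (at most 183) in Adn-Lpin1-/- HFD mice and 5.83 CPM in WT HFD mice. The other tested marker, the fatty acid binding protein gene Fabp4, averaged 10.6 CPM and 5.71 CPM in the same groups. Cfd (log2 3.76 and 3.81) and Fabp4 (log2 1.07 and 0.89) were called higher in Adn-Lpin1-/- mice on the LFD and on the HFD. Adipoq, the adiponectin gene, was too low to test and did not rise with them. Its LFD means were 0.908 CPM for WT mice (SD 1.91, range 0 to 4.32) and 0.0676 CPM for Adn-Lpin1-/- mice. Its HFD means were 0.189 CPM for WT mice (at most 0.746) and 0.027 CPM for Adn-Lpin1-/- mice. Each WT mean rested mostly on the highest mouse of its group, so these means show no clear fall. Lep was at most 0.0728 CPM in any library, Retn was at 0 in every WT LFD library and Plin1 in every Adn-Lpin1-/- LFD library. Neutrophil markers (1 of 12 tested) summed to 4.31 to 11.3 CPM in Adn-Lpin1-/- HFD mice and 2.82 to 8.71 CPM in WT HFD mice, with the highest sum of each group in Adn-Lpin1-/- HFD mouse 2 and WT HFD mouse 5. The tested one, the G-CSF receptor gene Csf3r, was called higher in Adn-Lpin1-/- mice on the HFD (log2 0.77, SE 0.22, edgeR adjusted p = 0.0212). It averaged 3.76 CPM of a mean sum of 6.61 CPM in Adn-Lpin1-/- HFD mice, and 2.20 of 4.60 CPM in WT HFD mice. Among markers too low to test, S100a8, S100a9, Ly6g, Cxcr2, Elane and Mpo had higher means in Adn-Lpin1-/- HFD than in WT HFD mice. Ngp, Camp, Ltf, Retnlg and Mmp8 had lower means. The part of these cells in the Lcn2 levels was not tested.

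Hp and Hpx, the scavengers of hemoglobin and heme, differed little between groups. Hp was 2785, 2022, 3593, 2404 and 2479 CPM in WT LFD mice, 2537, 2620.4, 2142, 2631 and 2575 CPM in Adn-Lpin1-/- LFD mice, 3118, 3317, 2983, 3113 and 3687 CPM in WT HFD mice and 2906, 3111, 2599, 3114 and 2695 CPM in Adn-Lpin1-/- HFD mice. In WT mice, only LFD mouse 3 was within the HFD range, and the log2 difference was 0.29 (SE 0.12, edgeR adjusted p = 0.226); without that mouse it was 0.42 and passed. In Adn-Lpin1-/- mice, the diet difference was 0.21 (95% interval -0.04 to 0.45). Hpx was 3420.0 to 4459.7 CPM (median 3696) in WT LFD mice, 3036 to 3473 CPM (median 3295) in Adn-Lpin1-/- LFD mice, 2977 to 5966 CPM (median 3468) in WT HFD mice and 2774 to 3729 CPM (median 3109.7) in Adn-Lpin1-/- HFD mice. Fitted log2 differences of Hpx lay between -0.27 and 0.03 in the 4 comparisons, the lowest being genotype on the HFD (95% interval -0.57 to 0.03), and none passed. Genes most like Hp in their variation among mice were Plbd2 (r = 0.80), Anapc5 (r = 0.80) and Fbxo36 (r = 0.77).

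Within groups, the acute phase genes tended to rise and fall together from mouse to mouse. How often pairs of other genes did so was not counted, so this tendency cannot be called particular to the acute phase genes. After the group means were removed from log2 CPM, 42 of 45 gene pairs had a Pearson r above 0 over the 20 mice. Of these, 11 pairs passed with both Pearson's r and Spearman's rho (100000 permutations of mice within groups, two-sided, adjusted over 45 pairs), all of them positive. The strongest was Saa1 with Saa2 (r = 0.88, rho = 0.89, permutation p = 1e-05 for each, the smallest possible, adjusted p = 0.00045 for each; r = 0.86 without the 2 mice farthest from the median of Saa1). Reads misassigned between these near-identical genes could enter that value. Saa1 with Saa3, which share less sequence, had r = 0.81 and rho = 0.80 (permutation p = 8e-05 and 0.00038, adjusted p = 0.0018 and 0.00855), and r was 0.75 without the 2 farthest mice. Saa1 with Orm2 had r = 0.74 and rho = 0.68 (permutation p = 0.00095 and 0.00379, adjusted p = 0.00611 and 0.0159), with r = 0.64 without the 2 farthest mice. Saa2 with Lcn2 had r = 0.74 and rho = 0.68 (permutation p = 0.00088 and 0.0033, adjusted p = 0.00611 and 0.0159), with r = 0.64 without the 2 farthest mice. Hp with Hpx had r = 0.59 and rho = 0.70 (permutation p = 0.00067 and 0.00085, adjusted p = 0.00611 and 0.0127), with r = 0.65 without the 2 farthest mice. The other 6 passing pairs were Saa2 with Saa3 (r = 0.74), Saa1 with Hpx (r = 0.73), Saa3 with Hpx (r = 0.70), Saa4 with Orm3 (r = 0.67), Orm2 with Lcn2 (r = 0.63) and Saa1 with Lcn2 (r = 0.60). Saa4 stood apart from the inducible Saa genes, with r = -0.09 to Saa1 and -0.26 to Saa2, and Orm1 with Lcn2 had r = -0.16; none of these passed.

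**Figure D3:**
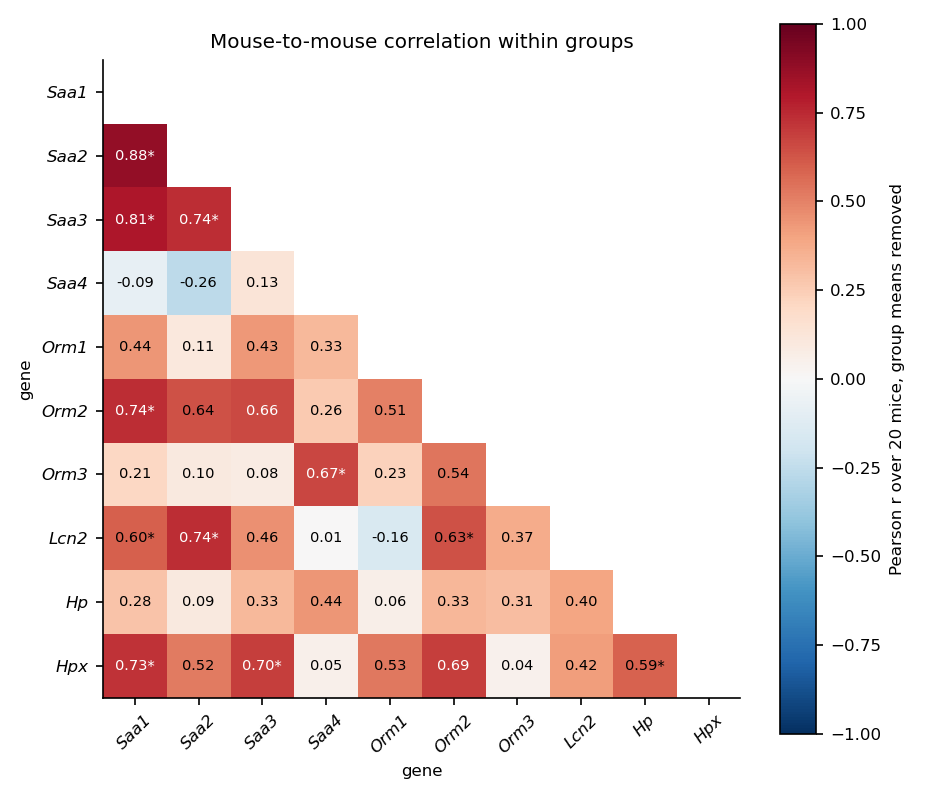
Pearson r between each pair of acute phase genes over the 20 mice after removal of the group means from log2 CPM; both axes list the genes. Stars mark the 11 pairs that passed with both Pearson's r and Spearman's rho after adjustment, with the darkest red at Saa1 with Saa2 (r = 0.88) and negative values only for Saa4 with Saa1 and Saa2 and for Orm1 with Lcn2.

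Single mice lay at the edge of their group in many of the 10 genes. How often each was the highest or lowest of its group over all genes was not counted, so these counts cannot be called particular to the 10. WT HFD mouse 5 was the highest of its group in 8 of the 10 genes, the exceptions being Saa4, in which it was the lowest, and Orm3. Adn-Lpin1-/- HFD mouse 2 was the highest of its group in 7 genes, excepting Saa4, Orm1 and Hp. Adn-Lpin1-/- HFD mouse 3 was the lowest of its group in 9 genes, excepting Orm1. Macrophage markers summed to 524 CPM in Adn-Lpin1-/- HFD mouse 2, the highest of the 20 mice, to 263 CPM in mouse 3 of that group and to 224 CPM in WT HFD mouse 5. Marker sums were not used to adjust the acute phase genes.

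The cytokines that induce these genes were mostly too low to test: Il6, Tnf, Osm, Lif and Il22 fell under the filter, and 11 of the 16 listed cytokine and receptor genes were tested. Il1b, the interleukin-1 beta gene, was higher in Adn-Lpin1-/- than in WT mice on the HFD (log2 1.51, SE 0.44, edgeR adjusted p = 0.023). Macrophage markers were higher in the same comparison (8 of 15 called, against 9.87% of all genes, median log2 difference 0.82). Their part in the Il1b, Relb and Cd14 values of this and the next paragraphs was not tested. Osmr, the oncostatin M receptor gene, rose in Adn-Lpin1-/- mice on both diets (log2 0.89 on the LFD and 0.57 on the HFD; edgeR adjusted p = 0.00107 and 0.0149). The leukemia inhibitory factor receptor gene Lifr fell on both diets (log2 -1.36 and -1.12; edgeR adjusted p = 0.0159 and 0.0347), as did Il1rap, the interleukin-1 receptor accessory protein gene (log2 -0.51 and -0.37; edgeR adjusted p = 0.00217 and 0.0155). In all, 1 rose and 3 fell of 11 on the LFD, where 6.27% of all genes rose and 8.11% fell, and 2 rose and 3 fell on the HFD, where 9.87% of all genes rose and 8.78% fell. The median log2 difference was -0.09 and 0.03, against 0.01 and 0.00 for all genes, and 0 of 11 were called for diet in either genotype by edgeR, against 1.10% of all genes in WT and 2.46% in Adn-Lpin1-/- mice.

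Among genes of signal transduction and transcription, 19 of 20 were tested, of which 1 rose and 1 fell in Adn-Lpin1-/- mice on the LFD and 4 rose and 2 fell on the HFD. The called share on the LFD, 2 of 19, was below the 14.4% of all genes, and 6 of 19 on the HFD stood against 18.6%. The NF-kappaB subunit genes Relb (log2 0.97, SE 0.24, edgeR adjusted p = 0.0105) and Nfkb2 (log2 0.48, SE 0.14, edgeR adjusted p = 0.0225) rose on the HFD, and Nfkb2 also rose on the LFD (log2 0.55, edgeR adjusted p = 0.0124). Pias3, which encodes an inhibitor of STAT3, rose on the HFD (log2 0.42, edgeR adjusted p = 0.00134). Cebpa, which encodes C/EBP alpha, fell on both diets (log2 -0.31 on each; edgeR adjusted p = 0.011 and 0.00959). The medians of the list were -0.03 on both diets, and 0 of 19 were called for diet in either genotype.

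Other acute phase genes that were called fell mostly in Adn-Lpin1-/- mice. Of 31 tested genes listed here as positive acute phase genes, 1 rose and 7 fell on the LFD (median log2 difference -0.28). On the HFD, 1 rose and 12 fell (median -0.26). Whether each listed gene rises in an acute phase response of mouse liver was not tested, and Il1r1 is also in the cytokine and receptor list. Of all genes, 8.11% fell on the LFD and 8.78% on the HFD, with medians of 0.01 and 0.00. Those that fell on the HFD included the serum amyloid P gene Apcs (log2 -0.71, edgeR adjusted p = 0.0013) and Serpina1e, which encodes an alpha-1-antitrypsin (log2 -1.94, edgeR adjusted p = 0.0339); the Serpina1 genes are close paralogs and their counts are uncertain. The risers were Vnn1, which encodes pantetheinase, on the LFD (log2 1.36, edgeR adjusted p = 0.0188) and Cd14, the lipopolysaccharide co-receptor gene, on the HFD (log2 1.06, edgeR adjusted p = 0.00751). With the HFD, 2 of the 31 rose in WT mice, and 1 rose and 1 fell in Adn-Lpin1-/- mice, where Apcs fell by 1.11 on the log2 scale (edgeR adjusted p = 0.000101); the called shares of all genes were 1.10% and 2.46%.

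Genes listed here as negative acute phase genes were also lower in Adn-Lpin1-/- mice. Of these, 6 of 14 fell in LFD-fed mice and 8 of 14 in HFD-fed mice, against 8.11% and 8.78% of all genes, and 0 rose. Apom, an HDL apolipoprotein gene, fell by 0.65 on the log2 scale on the LFD and by 0.86 on the HFD (edgeR adjusted p = 0.000644 and 4.95e-05). On the HFD, Apoa1, which encodes the main apolipoprotein of HDL (log2 -0.77, edgeR adjusted p = 0.00319), and the fetuin genes Fetub (log2 -0.55, edgeR adjusted p = 0.00381) and Ahsg (log2 -0.54, edgeR adjusted p = 0.0268) also fell. The median log2 difference of these 14 genes was -0.28 with LFD and -0.32 with HFD feeding. The HFD raised 1 of the 14 in each genotype. Of all genes, 1.20% were called higher with the HFD in Adn-Lpin1-/- mice, and 1.10% were called in either direction in WT mice. Alb is in this list and among the hepatocyte markers. The summed hepatocyte markers, given above for both diets, had lower means in Adn-Lpin1-/- mice (87520 against 102459 CPM with LFD and 83432 against 105507 CPM with HFD feeding), and their part in these falls and in those of the preceding list was not tested.

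Of the receptors and partners of the acute phase proteins, 12 of 15 were tested. Cd163, the macrophage receptor gene for haptoglobin-hemoglobin complexes, was higher in Adn-Lpin1-/- than in WT mice on the HFD (log2 0.88, SE 0.20, edgeR adjusted p = 0.0053) and rose with the HFD in Adn-Lpin1-/- mice (log2 0.87, SE 0.20, edgeR adjusted p = 0.0243). Slc22a17, a lipocalin-2 receptor gene, rose in Adn-Lpin1-/- mice on the HFD (log2 0.97, SE 0.28, edgeR adjusted p = 0.0232), and Blvrb, a biliverdin reductase gene, rose on both diets (log2 0.28 and 0.45; edgeR adjusted p = 0.0404 and 0.00275). In this list 1 rose and 0 fell on the LFD, 3 rose and 1 fell on the HFD, and 2 rose with the HFD in Adn-Lpin1-/- mice. The called share on the LFD, 1 of 12, was below the 14.4% of all genes, while 4 of 12 on the HFD stood against 18.6% and 2 of 12 for diet against 2.46%. Medians were 0.14 and 0.30 for genotype on the LFD and HFD. The marker sums of macrophages, which make Cd163, are given beside Saa3, and their part in the Cd163 values was not tested.

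**Figure D4:**
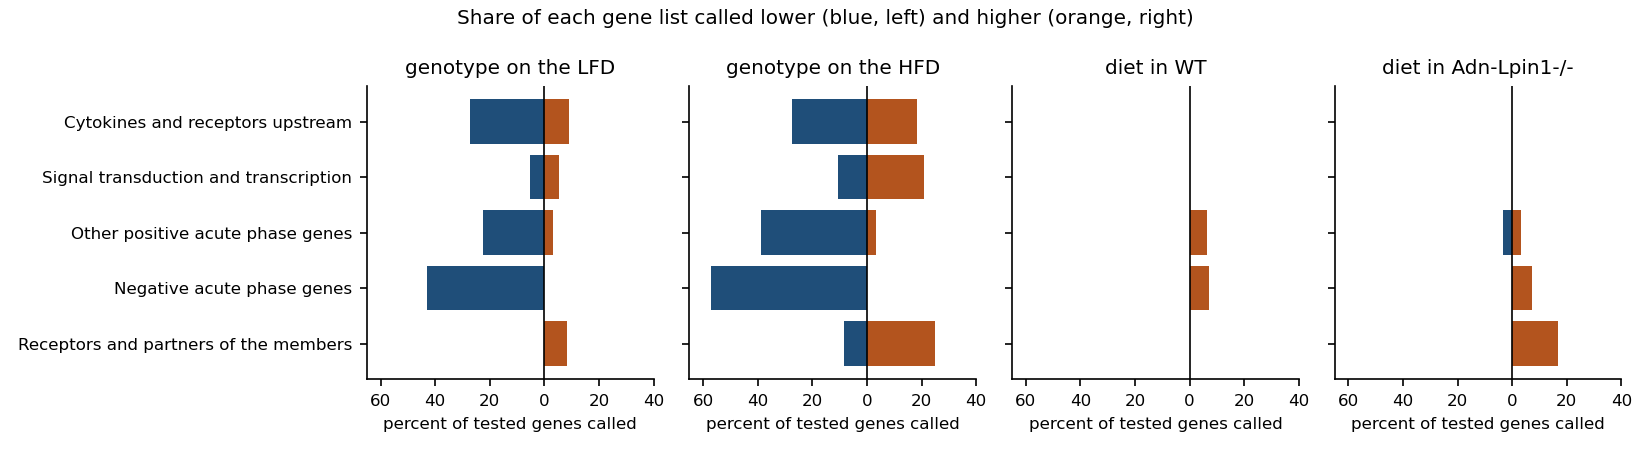
Percent of the tested genes of each list called lower (left, blue) and higher (right, orange) by edgeR in the 4 comparisons. Called genes of the acute phase lists lie mostly to the left in the genotype comparisons, 12 of 31 and 8 of 14 on the HFD, and are few in the diet comparisons.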

How the data were processed

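Liver RNA was poly-A selected, and libraries were aligned with STAR 2.5.1a to GRCm38 and counted per Ensembl gene with featureCounts 1.4.6-p5 (unique, unambiguous reads), per the study's methods and processing notes. The authors deposited gene counts, CPM and RPKM for each library; the counts were tested, deposited CPM and RPKM were used to check totals and gene lengths, and 355 rRNA genes were left out. The levels printed are CPM rescaled with TMM factors. Genes over 1 CPM in at least 4 of 20 libraries were kept (13052), and edgeR 4.0.16 (quasi-likelihood, TMM, 4 group means in 1 fit, R 4.3.3) gave log2 fold changes and p-values adjusted by Benjamini-Hochberg over all genes tested. The test named in the study's methods, limma voom with quality weights (limma 3.58.1), and DESeq2 1.42.0 were alternatives. The group size that the paper gives is larger than the single mice per group here, so its own fit may have held other libraries. Single values were also tested by exact permutation over 252 arrangements of the mice.

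The 10 genes and all lists were chosen with earlier results of these data known. All 10 genes are named; from each list up to 4 genes are named, the called genes with the largest change, and the 3 genes most like Saa1, Saa3, Orm1, Lcn2 and Hp were taken by Pearson r. For Saa1 these were Rcn2 (r = 0.82), Dnajc12 (r = 0.78) and Dcaf8 (r = 0.76). Marker lists without a value in the report were mesothelium (4 of 8 tested), cholangiocyte (5 of 7) and T and B cell (2 of 5), with 0 called in any of the 4 comparisons by edgeR, stellate cell and fibroblast (9 of 9; 6 higher in Adn-Lpin1-/- mice with LFD feeding and 5 with HFD feeding) and endothelial (5 of 5; 3 and 4 higher). Of all genes, 6.27% were called higher in Adn-Lpin1-/- mice on the LFD and 9.87% on the HFD. No columns of the authors' comparisons were used. Replicate numbers did not pair the mice (correlations of same-numbered mice -0.42 to 0.28). Antisense reads cannot be told apart, since stranded counting is not stated in the sources used here, and no annotated gene overlaps the 10. The NF-kappaB motif was shortened by its last letter after a first search with the longer form, which also matched 0 of the windows of these genes.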

Additional observations from a re-analysis of the deposited data

Results flagged for a closer look

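In all, 2 values stood apart from the rest of their group of 5 mice by Dixon's ratio at its 95% critical value, among 40 groups examined, of which chance flags about 1 in 20. Hp was 2142 CPM in Adn-Lpin1-/- LFD mouse 3, against 2537 CPM in the nearest mouse of that group (gap over range 0.809). Hpx was 5966 CPM in WT HFD mouse 5, against 3707 CPM in the nearest mouse (gap over range 0.756). WT HFD mouse 5 also had the highest Saa1, Saa2, Saa3, Orm1, Orm2, Lcn2 and Hp of its group, and without it the log2 genotype difference of Hpx on the HFD was -0.07 and that of Saa1 was 0.24.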

How the results depend on the processing

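Alternatives were run for the 10 genes, their counts and their correlations; other named genes were fitted by edgeR only. For the 10 genes in 5 comparisons, 323 of 365 single-gene values under other settings kept their direction and side of the threshold (10 changed sign, 31 came to pass and 1 no longer passed), as did 948 of 1000 with a mouse left out (22, 19 and 11). No scaling moved the median of all genes by over 0.1. The number of genes called for genotype on the LFD (0) was 1 with voom with quality weights, 4 with that test and the pools as sixth libraries, 1 (Saa2, adjusted p = 0.0471) with the replicate block, and 0 to 1 with a mouse left out. Over all 13052 genes, the main fit called 1877, voom 2217, voom with the pools 4163 and the replicate block 1532. For genotype on the HFD (0) it was 3 with DESeq2, 4 with voom, 6 with voom and the pools, 1 with the HFD groups alone, 2 (Saa2, adjusted p = 0.0133, and Orm2) with the replicate block, and 0 to 3 with a mouse left out. The main fit called 2434 of all genes there. The other fits, in that order, called 2917, 2447, 4740, 1982 and 2012, leaving aside those without a mouse. For diet in WT (0) it was 1 with DESeq2, 2 with voom, 3 with voom and the pools, 0 with the replicate block, and 0 to 2 with a mouse left out. All-gene counts there were 144 in the main fit, 400 with DESeq2, 670 with voom, 1938 with voom and the pools and 90 with the replicate block. For diet in Adn-Lpin1-/- (3) it was 4 with voom, 5 with voom and the pools, 2 with the replicate block, in which Orm1 was lost (adjusted p = 0.0779), and 2 to 3 with a mouse left out. All-gene counts there were 321 in the main fit, 364 with voom, 2342 with voom and the pools and 214 with the replicate block. With the pools, calls thus rose over all genes and not only among the 10. The pools repeat the RNA of the mice, so their fits are no independent evidence. The difference of the genotype effect stayed at 0 in each fit run, the 0 of the replicate block included, and could not be fitted from only 2 groups. Correlated pairs numbered 11 with DESeq2's size factors and 8 to 15 with a mouse left out. Summing paralogs gave no single-gene values for Saa1, Saa2 and the Orm genes; it left 0 genes called for genotype on either diet and 2 (Saa3 and Saa4) for diet in Adn-Lpin1-/-. The mice share only a number, since same-numbered mice correlated between -0.42 and 0.28.

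Differences near 0 changed sign, and the cause was not tested. With voom, and with voom and the pools, the genotype difference was -0.032 and -0.18 for Orm3 on the LFD and 0.31 and 0.18 for Saa1 on the HFD, diet in WT was -0.12 and -0.047 for Hpx, and the difference between diets was 0.24 and 0.0094 for Saa1; with voom it was 0.083 for Hpx. With the replicate block, Saa1 on the HFD was 0.034. With a mouse left out, genotype on the LFD ranged from -0.12 to 0.20 for Saa1, -0.041 to 0.17 for Orm2, -0.18 to 0.46 for Orm3 and -0.17 to 0.042 for Hp; genotype on the HFD from -0.35 to 0.24 for Saa1 and -0.19 to 0.010 for Saa4; diet in WT from -0.10 to 0.40 for Orm3 and -0.18 to 0.11 for Hpx; diet in Adn-Lpin1-/- from -0.087 to 0.022 for Hpx; and the difference between diets from -0.40 to 0.19 for Saa1, -0.11 to 0.41 for Saa2 and -0.14 to 0.15 for Hpx. Orm3, at 1.21 to 7.92 CPM, rests on the fewest reads of the 10. Each library came from 1 mouse, so p-values measure the spread between these mice.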

Other observations

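The split of reads within the Saa and Orm families was examined after the values of the single genes were seen, so it is a pattern noticed and tested on the same mice; a share of a family's reads needs no scaling between libraries. Saa2 took 30.4, 29.4, 25.2, 33.8 and 39.4% of the Saa1 and Saa2 reads in WT LFD mice 1 to 5 and 37.2, 43.2, 43.7, 41.3 and 42.3% in Adn-Lpin1-/- LFD mice. On the HFD it took 30.3, 23.5, 33.6, 38.6 and 22.7% in WT mice and 41.0, 47.0, 40.3, 39.9 and 41.1% in Adn-Lpin1-/- mice. All 5 Adn-Lpin1-/- HFD mice were above all 5 WT HFD mice, whereas WT LFD mouse 5 reached into the Adn-Lpin1-/- LFD range. The means differed by 9.91 percentage points on the LFD (two-sided exact permutation p = 0.0159, adjusted over 8 comparisons of shares 0.0317) and by 12.1 points on the HFD (exact permutation p = 0.00794, adjusted 0.0212). Diet differences were -1.91 points in WT mice (exact permutation p = 0.587) and 0.32 points in Adn-Lpin1-/- mice (exact permutation p = 0.865). The higher Saa2 means in Adn-Lpin1-/- mice stood beside Saa1 means of 49.2 CPM (WT) and 51.0 CPM (Adn-Lpin1-/-) on the LFD. On the HFD, the Saa1 means were 82.5 CPM in WT and 74.1 CPM in Adn-Lpin1-/- mice, but the medians were 45.7 and 77.5 CPM. The WT HFD mean was raised by mice 2 and 5, which also had the lowest Saa2 shares of that group.

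Orm2 and Orm3 together took 3.03 ± 0.70% (SD, n = 5) of the Orm reads in WT LFD mice, 3.74 ± 0.91% in Adn-Lpin1-/- LFD mice, 3.57 ± 0.50% in WT HFD mice and 7.20 ± 1.93% in Adn-Lpin1-/- HFD mice. The share in Adn-Lpin1-/- HFD mice was 5.47 to 10.3%, above every mouse of the other 3 groups. It was 3.64 points above WT HFD and 3.47 points above Adn-Lpin1-/- LFD (two-sided exact permutation p = 0.00794 for each, adjusted 0.0212), while the genotype difference on the LFD was 0.71 points (exact permutation p = 0.23). Reads lost in stretches shared by these genes enter both shares, and their part was not tested.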
